A study of Mus musculus with 12 samples.

Results

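Genes for spliceosome proteins were followed in mLTC-1 cells. The labels call this a murine Leydig cell line, and Leydig cells make androgens in the testis. The family was chosen by symbol: every entry of the deposited count table that starts with Snrp, or with Prpf, Sf3a, Sf3b or Lsm followed by a digit. This gave 47 genes of 26214 symbols. All 47 had counts, and 18 passed the filter on low counts that left 2614 genes to be tested. Cells had received either 100 µM MSNBA, a compound the series uses to block the fructose transporter Glut5, or DMSO, and RNA was taken after 24 h. There were 6 control and 6 MSNBA libraries of polyA RNA, and the labels do not say whether they came from separate cultures, so the spread behind the p-values may be technical. Both groups are the same line in culture, with no other testis cell present by the labels.

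The spliceosome removes introns from pre-mRNA. It is built from small nuclear ribonucleoproteins (snRNPs), each a short nuclear RNA with a ring of Sm proteins, or of LSm proteins in the case of U6, and further proteins of its own. U1 marks the start of the intron, U2 binds the branch point through the SF3A and SF3B subunits, and the U4/U6.U5 tri-snRNP then joins. The Prp19 complex, named after the ubiquitin ligase that Prpf19 encodes, keeps the catalytic core in place. The symbol rule and the label of core spliceosome proteins do not cover the same genes. Lsm1 belongs to a cytoplasmic ring that acts in mRNA decay, Lsm10 and Lsm11 to the U7 particle that cuts histone mRNA, and Lsm14a and Lsm14b to cytoplasmic mRNA granules. Spliceosome genes whose symbols start with Snrnp fall outside the rule and are counted with the other splicing genes below.

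RefSeq promoter windows (mouse GRCm38.p6, 250 bases before to 50 after a start) were found for 38 of the 47 genes. The 150 bases before the start are printed for the 3 members with an unadjusted p under 0.05 in the comparison below, to show what these genes carry in front of their starts. All lie on the plus strand and read 5′ to 3′. Capitals mark the letters of the motifs searched, on both strands. These were the CCAAT box by its name, the TATA box (TATAAA), the GC box (GGGCGG) and letters of the ETS type (CCGGAAG), the NRF1 type (GCGCATGC) and the YY1 type (AAGATGG). Prpf19 is shown at chr19:10895081-10895230, Prpf6 at chr2:181601169-181601318 and Prpf8 at chr11:75486627-75486776.
Prpf19: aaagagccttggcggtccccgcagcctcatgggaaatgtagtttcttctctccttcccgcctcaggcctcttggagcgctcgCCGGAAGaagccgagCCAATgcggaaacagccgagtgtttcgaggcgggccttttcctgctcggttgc
Prpf6: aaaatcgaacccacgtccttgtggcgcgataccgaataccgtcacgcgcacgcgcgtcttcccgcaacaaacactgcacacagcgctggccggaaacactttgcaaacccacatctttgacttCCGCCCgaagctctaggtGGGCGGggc
Prpf8: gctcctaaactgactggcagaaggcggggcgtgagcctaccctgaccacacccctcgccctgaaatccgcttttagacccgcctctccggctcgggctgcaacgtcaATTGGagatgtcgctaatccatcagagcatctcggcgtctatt

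The stretch of Prpf19 held the ETS-type letters and a CCAAT box, that of Prpf6 a GC box in both orientations, and that of Prpf8 a reversed CCAAT box. Over the whole windows, the ETS-type letters stood in 15 of 38 members (39.5%), against 23.9% of the tested genes with a window and 9.93% of all 27025 genes with one. The GC box stood in 63.2% of members, 72.8% of tested genes and 38.2% of all genes. The TATA box letters stood in 3 members (7.89%), against 8.25% of tested genes and 15.7% of all genes. In the same order, the shares were 44.7%, 45.4% and 41.1% for CCAAT, 7.89%, 7.55% and 3.05% for the NRF1-type letters and 7.89%, 10.7% and 7.28% for the YY1-type letters. A match of letters is a description and shows no bound factor.

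Library totals ran from 59113 to 234225 counts in controls and from 94179 to 657251 in MSNBA, and 41.1% of all MSNBA counts came from MSNBA 1. Leydig markers were present in every library (7 of 7 genes, summed level 7490 to 10905 CPM, counts scaled to a common library total, in controls and 7569 to 9388 CPM in MSNBA). The summed markers of macrophages (Cd14 at 0), endothelial, Sertoli, germ and fibroblast cells each stayed at or below 143 CPM in every library, and their part in the results was not tested. In bulk RNA, fewer cells and less RNA per cell cannot be told apart.

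MSNBA was compared with control, the single contrast of the series. As a family the spliceosome genes took about the same share of the RNA in both groups. The 47 genes together held 8442 counts, and their summed level was 3507 ± 238 CPM in controls, with MSNBA libraries at 3604 ± 258 CPM (SD, n = 6 in each group, here and for every mean ± SD below). Controls ran from 3191 to 3780 CPM and MSNBA libraries from 3364 to 4027 CPM, so that the groups overlapped over most of their range. The ratio of the means was 1.03-fold.

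By the edgeR quasi-likelihood test 0 of the 18 tested members passed an adjusted p of 0.05, where 0.0765% of all tested genes did. At an unadjusted p under 0.05, Prpf8 was higher, as were 4.17% of all tested genes, and Prpf19 and Prpf6 were lower, as were 4.78%. These 3 are 16.7% of the tested members, beside 8.95% of all tested genes in either direction. DESeq2, fitted without the low-count filter, called 0 of all 47 members (0% of all genes) and had 1 at an unadjusted p under 0.05, where 2.01% of all genes in its fit did. The limma-voom fit called 0 of the 18 (0% of all genes) and had 2 at an unadjusted p under 0.05, where 9.91% of all genes in its fit did. The log2 fold changes of the 18 ran from -0.70 to 0.53 with a median of 0.10, beside -0.0082 over all tested genes. Of the 18, 12 values lay above 0 and 6 below, where 48.5% of all tested genes lay above 0. Without MSNBA 1, the deepest library, the median was -0.016 over the 19 members then tested and 0.043 over those of the 18 among them. With log2 library depth in the model the median of the 18 was 0.021, with 9 values on either side of 0.

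**Figure D1:**
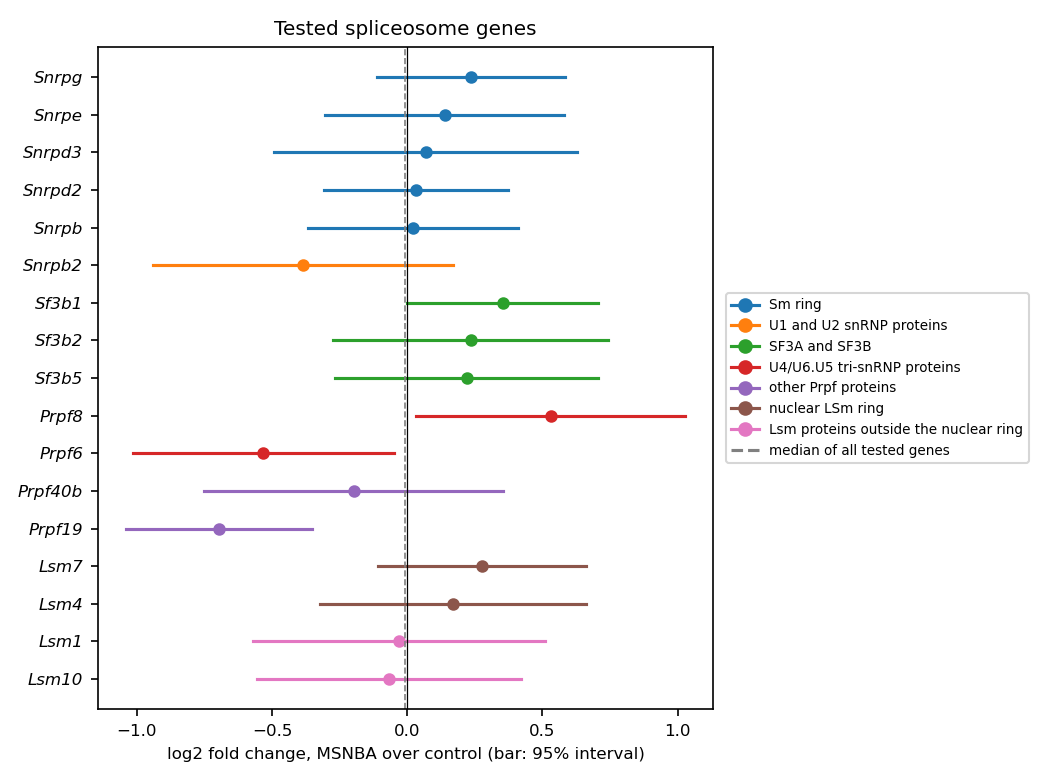
Log2 fold change of MSNBA over control (horizontal axis) for 17 of the 18 tested spliceosome genes, coloured by role, with 95% intervals from the edgeR fit as bars and the median of all tested genes as a dashed line. Prpf19 lies lowest at -0.70, Prpf8 highest at 0.53, and the 5 Sm genes lie between 0.022 and 0.24.

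Prpf19 (chromosome 19, 10895231 to 10909559), which encodes the ubiquitin ligase at the heart of the Prp19 complex, had the lowest value of the family. Its normalized CPM, scaled over the tested genes with TMM factors, were 333, 396 and 673 in controls (lowest, median and highest of 6) and 224, 273 and 308 in MSNBA. All 6 MSNBA libraries lay below all 6 controls. The groups did not overlap, counted in either direction, for 1 of the 18 tested members and for 0.65% of all tested genes. The gap was narrow, since control 1, the lowest control, stood at 333 and MSNBA 3, the highest treated library, at 308. The means were 444 ± 124 and 273 ± 32.4 CPM, and 0.627-fold was the ratio of pooled counts. The log2 fold change was -0.70 (SE 0.17, 95% interval 0.486- to 0.784-fold), with an unadjusted p of 1.97e-04 and an adjusted p of 0.101 by edgeR, so that it did not pass. It was the 5th lowest p of the 2614 genes tested.

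The direction of Prpf19 held in every setting tried, but its size and call moved. The adjusted p was 0.0312 without control 1, the control nearest to the MSNBA libraries (log2 fold change -0.81), and the gene then passed. Without control 4, the highest library, the log2 value was -0.56 (adjusted p = 0.197). With library depth in the model it was -0.52 (SE 0.19, adjusted p = 0.46). The adjusted p was 0.0627 by edgeR with the replicate number as a block and 0.126 by limma-voom. By DESeq2 the log2 fold change was -0.68 (SE 0.20, unadjusted p = 4.97e-04, adjusted p = 0.999). That 0.999 was the lowest adjusted p of any member in the DESeq2 fit. The adjusted p ran from 0.0312 to 0.999 over all settings. The other 7 Prpf genes of its role, taken without Prpf19, summed to 337 ± 46.8 CPM in controls and 361 ± 31.3 CPM in MSNBA, while the whole role summed to 686 ± 128 and 578 ± 51.3 CPM.

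**Figure D2:**
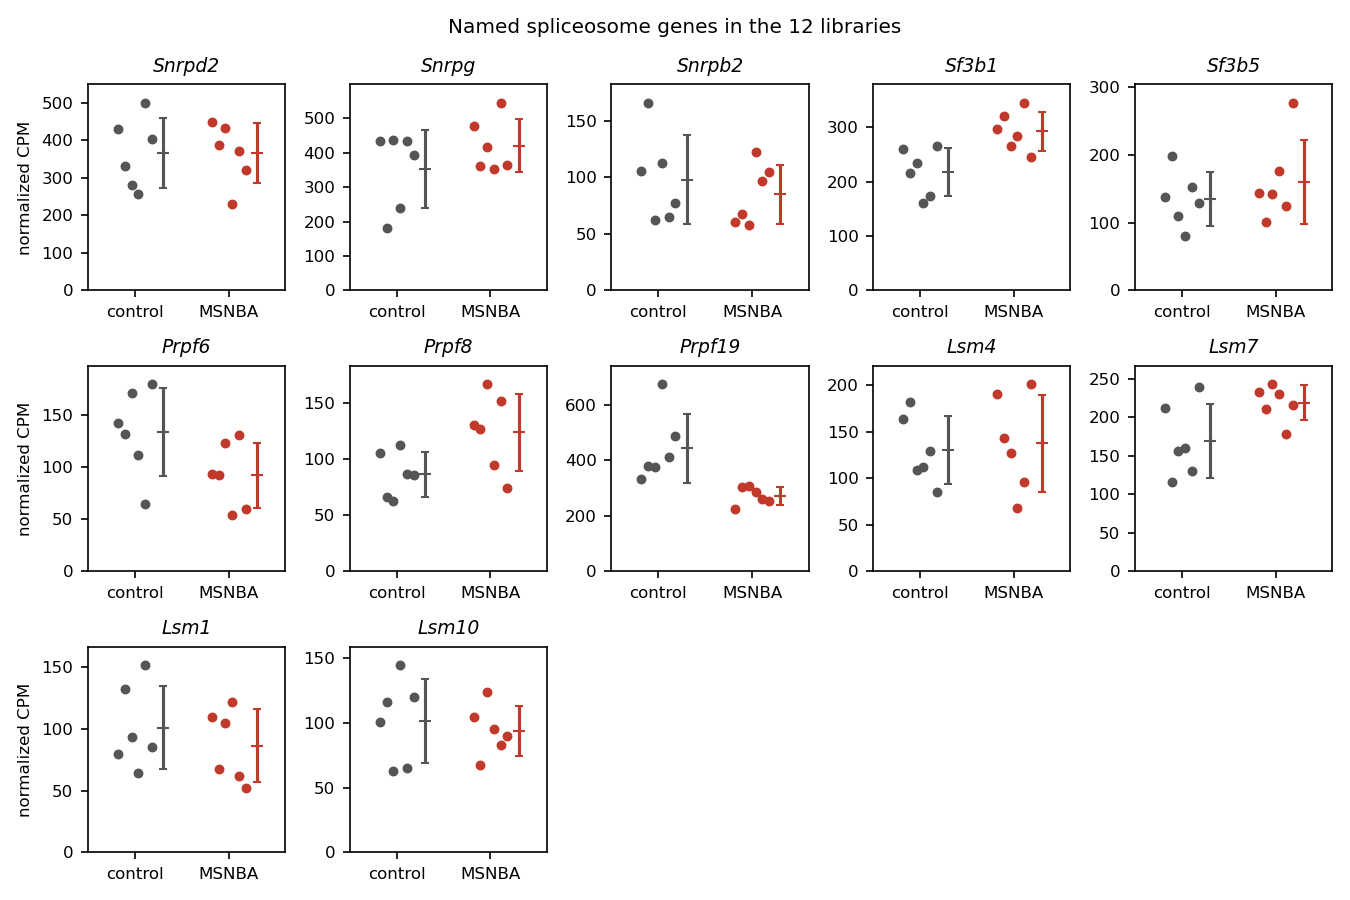
Normalized CPM (vertical axes, from 0) of the 12 spliceosome genes described singly, with 1 point for each of the 6 control (grey) and 6 MSNBA (red) libraries, and the mean and SD beside them. Prpf19 has no overlap between 333 to 673 CPM in controls and 224 to 308 CPM in MSNBA, while the groups of the other 11 genes overlap.

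The proteins of the U4/U6.U5 tri-snRNP gave values on both sides. Prpf8 (chromosome 11, 75486777 to 75509447) encodes the large U5 protein that holds the catalytic RNA. Its normalized CPM were 62.4, 86.2 and 112 in controls (lowest, median and highest) and 74.6, 128 and 167 in MSNBA. Of the MSNBA libraries, 5 lay above the control median and MSNBA 6 was the exception. In the fit it stood at 0.53 on the log2 scale (SE 0.25, unadjusted p = 0.0373, adjusted p = 0.495 by edgeR, means 86.5 ± 20.1 and 124 ± 34.4 CPM). With depth in the model it was 0.36 (SE 0.30).

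Prpf6 (chromosome 2, 181601319 to 181655661) encodes a protein that bridges U5 with U4/U6. It measured 65.0, 138 and 180 CPM in controls and 54.2, 93.2 and 131 CPM in MSNBA. All 6 MSNBA libraries lay below the control median, but control 4, at 112 CPM, and control 5, at 65.0 CPM, lay among them. In the fit it stood at -0.53 on the log2 scale (SE 0.24, unadjusted p = 0.0311, adjusted p = 0.466 by edgeR). The genes Samd10 and Zfp512b overlap Prpf6 on the other strand, and the sources used here do not say whether strand was counted.

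Prpf3, Prpf4 and Prpf31, the U4/U6 proteins, had 48 to 125 counts over all libraries and were not tested. Their pooled ratios of MSNBA to control were 1.02 for Prpf3, 1.41 for Prpf4 and 0.775 for Prpf31, each with a counting interval that held 1. The summed level of the 5 tri-snRNP genes was 275 ± 64.3 CPM in controls and 294 ± 55.9 CPM in MSNBA.

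Among the Prpf genes outside the tri-snRNP, Prpf40b had a log2 fold change of -0.20 (SE 0.27), with ranges of 77.1 to 112 CPM in controls and 47.7 to 119 CPM in MSNBA. Prpf18, Prpf38a, Prpf38b, Prpf39 and Prpf4b were not tested.

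Subunits of SF3A and SF3B, the part of U2 that grips the branch point, summed to more in MSNBA. The 9 genes gave 401 to 649 CPM in controls and 624 to 749 CPM in MSNBA, with means of 545 ± 103 and 686 ± 41.8 CPM. Only control 2, at 649 CPM, lay inside the MSNBA range. They took 15.5% ± 2.82 of the family's counts in controls and 19.1% ± 1.90 in MSNBA. A sum over chosen genes was given no test, and 0 of its 3 tested genes passed.

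Sf3b1 encodes the subunit that clamps the branch point. It measured 160, 225 and 266 CPM in controls and 246, 291 and 344 CPM in MSNBA. All 6 MSNBA libraries lay above the control median, and control 1 and control 6 reached into their range. In the fit it stood at 0.35 on the log2 scale (SE 0.18, unadjusted p = 0.0515, adjusted p = 0.555 by edgeR). Without Sf3b1 the other 8 genes still summed to 373 ± 85.8 CPM in controls and 452 ± 61.6 CPM in MSNBA, with overlap.

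Sf3b5, a small subunit of SF3B, measured 80.2, 133 and 199 CPM in controls and 101, 142 and 276 CPM in MSNBA, the last in MSNBA 6. Its log2 fold change was 0.22 (SE 0.24), with 0.045 in the absence of MSNBA 6 and 0.14 in that of control 4. These were its highest MSNBA library and its lowest control, so both values are lower by construction and no separate check. Sf3b2 had a value of 0.24 (SE 0.25). Its controls ran from 16.0 CPM in control 4 (1 count) to 195 CPM in control 5 (9 counts). This is the widest control range among the tested SF3 genes. Of the untested members, Sf3a1 had 31 counts in controls and 107 in MSNBA, a pooled ratio of 1.47 (counting interval 0.976 to 2.27). Sf3a2 had 1 and 10 counts (ratio 4.25, interval 0.605 to 185) and overlaps Plekhj1 on the other strand. The remaining untested ratios were 0.691 for Sf3b4, 1.09 for Sf3b6, 1.20 for Sf3b3 and 1.28 for Sf3a3. Each of these had a counting interval that held 1.

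**Figure D3:**
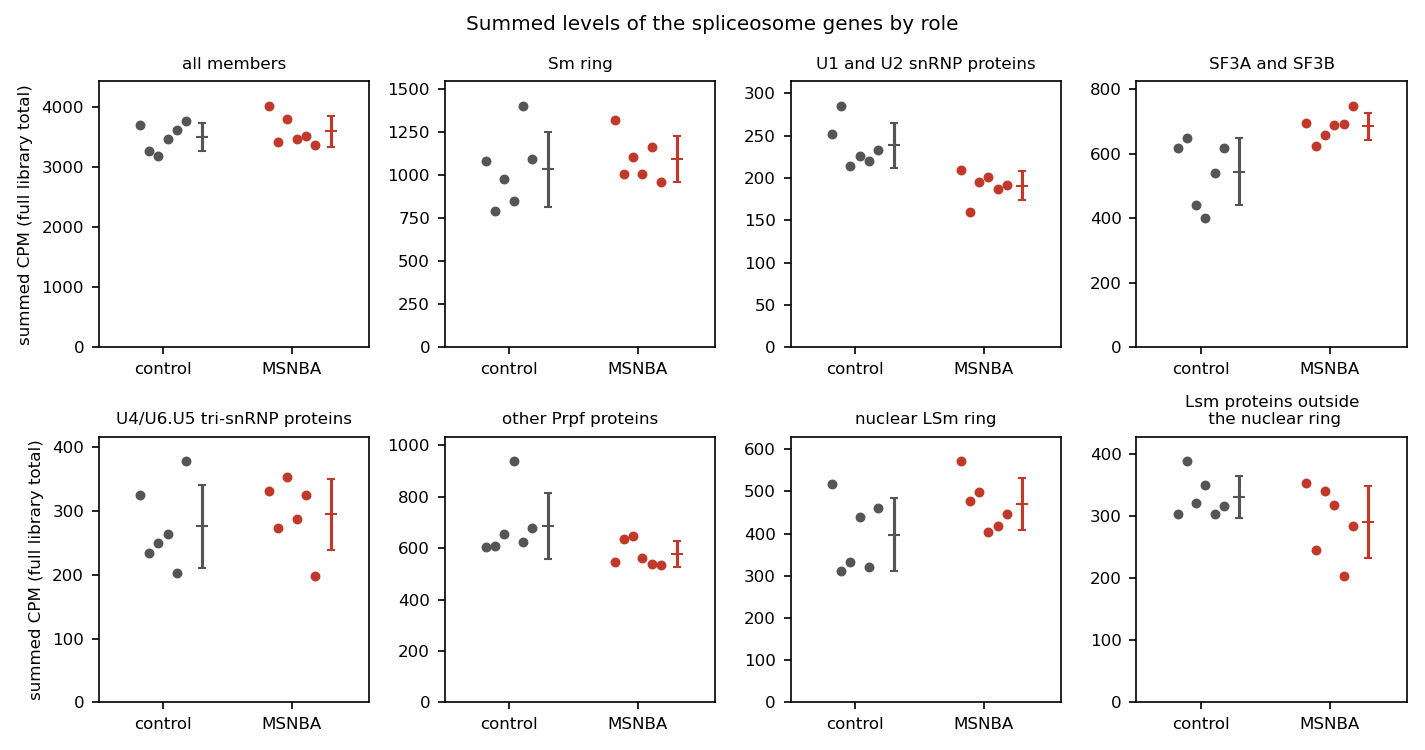
Summed CPM over the full library total (vertical axes, from 0) of all 47 spliceosome genes and of each role, with 1 point per library and the mean and SD of each group of 6. The 4 U1 and U2 snRNP genes lie at 214 to 286 CPM in controls and 159 to 210 CPM in MSNBA, and the SF3A and SF3B genes at 401 to 649 and 624 to 749 CPM.

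The 4 genes grouped as U1 and U2 snRNP proteins lay on the other side. Snrpa and Snrpc belong to U1, and Snrpa1 and Snrpb2 to U2. Their summed level was 239 ± 26.5 CPM in controls and 191 ± 17.4 CPM in MSNBA, a ratio of 0.801. The lowest control had 214 CPM (control 3) and the highest MSNBA library 210 CPM (MSNBA 1). The groups thus did not overlap, with a narrow gap between them. This sum was given no test, and how often sums of other genes do not overlap was not computed. Without Snrpb2, the member with the most counts, the sums were 138 to 172 and 106 to 160 CPM and overlapped. Each of the 4 pooled ratios lay below 1, from 0.754 for Snrpb2 to 0.896 for Snrpa1, and each counting interval held 1. Only Snrpb2 could be tested. It measured 62.4, 91.5 and 165 CPM in controls and 58.0, 81.9 and 122 CPM in MSNBA, and its fitted log2 value was -0.39 with an SE of 0.27 (adjusted p = 0.681 by edgeR). The value was -0.24 without control 2, the highest library, and -0.095 with depth in the model. Leaving out the highest control brings a value below 0 nearer to 0 by construction, so the -0.24 is no separate check.

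The Sm proteins form the ring on U1, U2, U4 and U5. Their genes had the largest summed level of any role, with 1034 ± 218 CPM in controls and 1094 ± 133 CPM in MSNBA. Snrpg, for Sm protein G, measured 182, 414 and 437 CPM in controls and 352, 391 and 544 CPM in MSNBA. Controls 2 and 4 were low for it, at 182 and 241 CPM, and the other 4 controls fell inside the MSNBA range. The log2 fold change was 0.24 (SE 0.17, adjusted p = 0.698 by edgeR). It was 0.13 without control 2, 0.022 without both low controls and 0.064 with depth in the model. The 0.13 and 0.022 leave out its lowest controls, which lowers a value above 0 by construction, so they are no separate check.

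Snrpd2, for Sm protein D2, measured 257, 367 and 498 CPM in controls and 230, 380 and 448 CPM in MSNBA. The groups overlapped over most of their range, with a log2 fold change of 0.033 (SE 0.17) and a 95% interval of 0.808- to 1.29-fold. The other tested Sm genes were Snrpb (0.022), Snrpd3 (0.068) and Snrpe (0.14) on the log2 scale, with SE of 0.19 to 0.28. For Snrpb, Snrpd2 and Snrpd3 the mean of the normalized CPM was lower in MSNBA although the fitted value was above 0. The fit weights libraries by depth, and a plain mean does not. Snrpd3 had means of 96.9 CPM in controls and 82.9 CPM in MSNBA. Snrpd1 and Snrpf were not tested and had pooled ratios of 1.18 and 1.11. Small Sm and LSm genes have processed copies in mammalian genomes, and how reads shared with such copies were counted is not given in the labels.

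Snrpn encodes a close relative of Sm protein B that is known from neurons and from the imprinted region it lies in. It had 8 counts over the controls and 8 over the MSNBA libraries, against 103 and 260 for Snrpb. The ratio was 0.425 with a counting interval of 0.139 to 1.30. Its reads cannot be told from those of Snurf, which shares its locus and strand.

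LSm proteins form the ring on U6. Lsm7 measured 116, 158 and 240 CPM in controls and 179, 223 and 243 CPM in MSNBA. All 6 MSNBA libraries lay above the control median, and control 1 and control 6 lay within their range. The log2 fold change was 0.28 (SE 0.19, adjusted p = 0.668 by edgeR), with 0.16 when controls 2 and 4 were left out and 0.10 when depth was in the model. The 0.16 leaves out control 2, the lowest control for Lsm7, so it is no separate check. Lsm4 measured 85.7, 121 and 182 CPM in controls and 67.8, 135 and 201 CPM in MSNBA, a log2 fold change of 0.17 (SE 0.24) that turned to -0.12 with depth in the model and to -0.016 without MSNBA 1. The 7 nuclear LSm genes summed to 397 ± 86.2 CPM in controls and 470 ± 61.5 CPM in MSNBA.

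Lsm8, the subunit that sets the nuclear ring apart from the cytoplasmic one, had 10 counts in controls and 33 in MSNBA. Over library totals this was a pooled ratio of 1.40 (counting interval 0.676 to 3.19), and Lsm8 was at 0 in 4 libraries. Lsm1, the cytoplasmic counterpart of Lsm8, measured 64.1, 89.6 and 152 CPM in controls and 52.2, 86.3 and 122 CPM in MSNBA, with a log2 fold change of -0.030 (SE 0.27). Lsm10 of the U7 particle measured 62.4, 108 and 144 CPM in controls and 67.5, 92.2 and 123 CPM in MSNBA, with a value of -0.067 (SE 0.24). Its partner Lsm11 had 14 and 23 counts, a pooled ratio of 0.699 over library totals (counting interval 0.345 to 1.47). The 6 Lsm genes outside the nuclear ring summed to 331 ± 33.5 CPM in controls and 291 ± 58.1 CPM in MSNBA.

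Per length, Lsm7 and some of the Sm genes had the highest levels, while the Lsm genes spread widely. Levels per kilobase, here the mean CPM over the 12 libraries divided by the length of the longest principal GENCODE transcript, were 329 CPM per kb for Lsm7, 291 for Snrpg, 230 for Snrpe and 204 for Snrpd2. Among the Sm genes, whose products each stand once in the ring, the same measure was 62.5 CPM per kb for Snrpd1 and 23.5 for Snrpd3, and it was 5.19 for Snrpn, the relative of Snrpb. Lsm genes ran from 329 CPM per kb for Lsm7 to 2.48 for Lsm11. The measure was 133 CPM per kb for Prpf19, 32.7 for Sf3b1, 11.2 for Prpf8 and 1.81 for Sf3a2. The deposited table's name marks its counts as UMIs (1 count for a tagged molecule), and the labels do not say which part of a transcript was read. If the counts are of molecule ends, dividing by length is not needed, and Snrpg, Snrpd2 and Prpf19 then stand first at 307, 290 and 283 CPM.

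Of the 47 genes, 29 were not tested, with 11 to 146 counts over all libraries, and 11 of the 47 were at 0 in at least 1 library. The pooled ratio lay above 1 for 16 of the 29 and below 1 for 13. The counting interval left out 1 for a single gene, Lsm6 of the nuclear LSm ring, named after its values were seen. It had 23 counts in controls and 91 in MSNBA, a ratio of 1.68 (interval 1.06 to 2.79), and 48 of the 91 came from MSNBA 1. These intervals cover counting error at 95% only and not the spread between libraries. With 29 such intervals, counting error alone can leave out 1 for some genes, and for how many was not computed. The share over all other untested genes was not computed. When all 47 were fitted without the low-count filter, 32 values lay above 0 and 15 below with a median of 0.18, beside 0.079 over all genes of that fit. The share of all genes above 0 in that fit was not computed. The 18 tested members had a median of 0.24 there, beside 0.14 over the 2614 genes of the reported test. In the same fit 6 of the 47 had an unadjusted p under 0.05 by edgeR, 5 higher and 1 lower, where 6.96% of all its genes did.

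**Figure D4:**
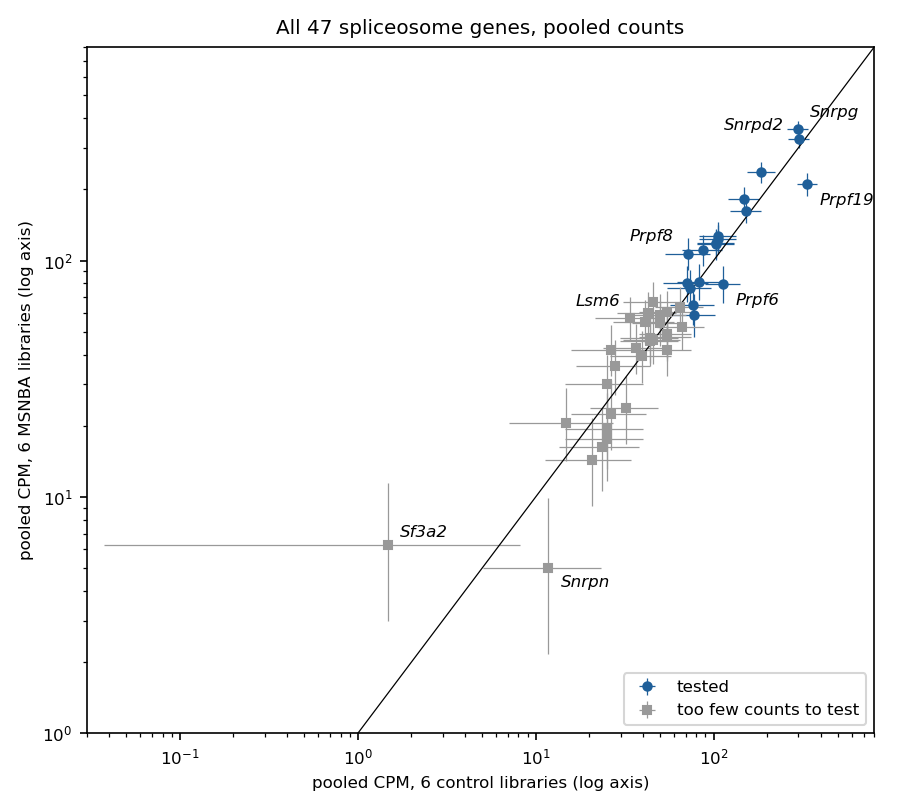
Pooled CPM of all 47 spliceosome genes in the 6 control libraries (horizontal, log axis) and the 6 MSNBA libraries (vertical, log axis), with 95% counting intervals and a line of equality. Prpf19 lies below the line at 335 and 210 CPM, and the 29 genes with too few counts to test (grey) carry wide intervals.

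The spread of a gene within its group, as a multiple of what counting alone gives, had a median of 1.17 over the 18 tested members and of 1.33 over all tested genes. It was 2.10 for Prpf19 and reached 2.22, in Snrpg, among the members. The median SE of a member's log2 fold change was 0.24. Relative to a gene's mean over the 12 libraries, the median of the tested members was lowest in control 4 at -0.20 on the log2 scale and highest in MSNBA 1 at 0.21 and MSNBA 3 at 0.20, the deepest libraries. In the other libraries it lay between -0.11 and 0.069.

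Splicing genes outside the family were taken from 6 lists. Of 186 symbols 61 were tested, and 0 passed by edgeR. At an unadjusted p under 0.05, 0 were above and 2 below the controls (3.28%, beside 8.95% of all tested genes). Of the 61 values 27 lay above 0 and 34 below. The median log2 fold change was -0.060 for 10 other snRNP genes (5 below 0), -0.0999 for 17 genes of splice site recognition and SR proteins (9 below 0) and 0.021 for 17 hnRNP genes (8 below 0). It was -0.15 for 6 genes of the Prp19 complex and catalytic activation (5 below 0), -0.21 for 4 genes of Sm ring assembly (3 below 0) and -0.00068 for 7 genes of the exon junction and mRNA export (4 below 0). The 2 lower genes were Srrm1, for an SR-related splicing coactivator, and Luc7l2, for a U1-associated protein. Srrm1 measured 128, 178 and 248 CPM in controls and 116, 129 and 145 CPM in MSNBA (log2 fold change -0.45, SE 0.21, adjusted p = 0.467 by edgeR). Luc7l2 measured 397, 514 and 737 CPM in controls and 312, 430 and 501 CPM in MSNBA (-0.37, SE 0.16, adjusted p = 0.446 by edgeR). Both overlapped between the groups.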

How the data were processed

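The authors deposited whole-number counts, 1 row for a gene symbol and 1 column for each of 12 libraries. The name of the deposited table carries the words refseq and umi, which points to RefSeq genes and counts of unique molecular identifiers, and no label describes that step. BWA 0.7.4.4 and mm10 are named in the submitters' processing notes. Which tool counted, with which annotation version and whether by strand, is not given in the sources used here. Groups came from the titles. Genes were filtered by filterByExpr (minimum count 10), scaled by TMM and tested by the edgeR 4.0.16 robust quasi-likelihood F test in R 4.3.3, two-sided, with Benjamini-Hochberg adjustment over the 2614 tested genes, which held 79.2% of all counts. The SE is the size of the log2 fold change over the square root of F. Alternatives used DESeq2 1.42.0 and limma 3.58.1. Normalized CPM of single tested genes carry TMM factors; summed, pooled and marker CPM are over full totals. Counting intervals are exact, Poisson for levels and binomial for ratios.

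The members, roles and lists were chosen with earlier results of these data known. Genes described singly were those with an unadjusted p under 0.05, the 3 highest and 3 lowest log2 fold changes, the 2 with most counts in each role, and Prpf19; other members are given by counts and ranges. Of the 13 genes this rule picked, 1 enters counts and sums only and is not reported here. Positions are from RefSeq GRCm38.p6, which matched 47 of 47 symbols, and overlaps and lengths from GENCODE M21. No 2 libraries of a group agreed within counting noise (chi-square per degree of freedom 1.24 to 2.41 over 30 pairs).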

Additional observations from a re-analysis of the deposited data

Results flagged for a closer look

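A library standing apart from the other 5 of its group was looked for in 42 sets of values, and 1 was found, while about 1 in 20 is flagged by chance. It was control 4, where the Prpf genes outside the tri-snRNP summed to 940 CPM, against 680 CPM in the control nearest to it. Prpf19 measured 673 normalized CPM in that library and 489 in control 6, and the role's sum without Prpf19 reached 414 CPM at most in controls.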

How the results depend on the processing

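The count of members past the threshold was 0 in each of the 10 settings other than leaving out 1 library. With 1 library left out it ran from 0 to 1, the 1 being Prpf19 without control 1. With 1 library left out the median of the tested members ran from -0.016 (without MSNBA 1, where 1 more member was tested) to 0.15 (without MSNBA 2), and in the other settings from 0.021 (depth as covariate) to 0.18 (no low-count filter, all 47 members). The log2 ratio of the summed level was 0.039, and 0.17 with TMM factors over the whole table in place of library totals. With 1 library left out it ran from 0.0051 to 0.062. Same-number libraries correlated above 0.1 in 3 of 6 pairs (-0.23 to 0.48), and 4 of 12 libraries correlated best with their own number. Whether the numbers pair the samples cannot be told from these values. With the replicate block 0 members passed, the median was 0.085 and Prpf19 was at -0.66. Of the 13 genes that the naming rule picked, 9 kept their sign in every setting. Signs turned for 4 genes near 0. Without the low-count filter Lsm1 was 0.10 and Lsm10 0.073, where all genes of the reported test moved to a median of 0.14. With depth as covariate Lsm4 was -0.12 and Snrpd2 -0.21. With controls 2 and 4 left out Lsm10 was 0.059 and Snrpd2 -0.075. With 1 library left out Lsm1 ran from -0.18 to 0.069, Lsm10 from -0.16 to 0.014, Lsm4 from -0.016 to 0.32 and Snrpd2 from -0.043 to 0.10. The cause was not tested. The stricter filter of 20 counts in 6 libraries left 6 members, so it gave no value for the other members. Replicates were too shallow for 29 members.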
